A study of Mus musculus with 10 samples.

Results

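A set of 8 genes of Schwann cells and myelin was followed in mouse gastrocnemius, the large calf muscle, on whole-transcript arrays. They were Mbp, Pmp22, Prx, Mag, S100b, Sox10, Egfl8 and Cnp, taken by gene symbol. The probe annotation paired 7 of these 8 with 1 probe set each, out of 19938 genes so named. Prx (periaxin, a scaffold protein of myelinating Schwann cells) had no probe set paired with it and was not analysed here. A filter on low signal kept 11963 genes, whose mean over all arrays reached 3.23 on the log2 scale, and 6 of the 8 genes were among them. S100b had a mean of 3.18 and did not pass, so its values are given without a test.

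Each of the 10 arrays carried RNA pooled from 5 male C57BL/6 mice. F0 EX mice had voluntary exercise and F0 SED mice a sedentary life, both groups were 28 weeks old, and each had 1 pool. F1 EX and F1 SED mice, 8 weeks old, were the offspring of F0 mice mated with partners of like exposure, and F2 EX and F2 SED mice, also 8 weeks old, came from F1 littermates bred together. These 4 descendant groups had 2 pools each and were all sedentary, so EX and SED name their ancestry. Age, generation and, in F0 EX, the animals' own exercise thus go together and cannot be told apart when F0 is set against the descendants. Pooling leaves the spread between single animals unmeasured.

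Peripheral myelin is wrapped around the motor and sensory axons of muscle nerves by Schwann cells, glia of neural crest origin. Compact myelin is held together by membrane and cytoplasmic proteins such as Pmp22 and Mbp, while Mag and Cnp belong to its uncompacted parts. Sox10, a transcription factor that Schwann cells need at every stage, acts with Egr2 on the myelin genes. Intramuscular nerve is a small share of whole muscle, and its RNA is diluted by that of the fibres. In such bulk RNA, fewer Schwann cells and less RNA per Schwann cell cannot be told apart.

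All 9 skeletal muscle markers passed the signal filter, with Acta1 (skeletal actin) at a mean log2 signal of 13.5 and Ckm (muscle creatine kinase) at 13.2. Of 7 oligodendrocyte markers 2 passed, Hapln2 and Cldn11, while Mog, Mobp, Opalin, Olig1 and Olig2 did not. A pair of arrays stood apart from the rest. Across the kept genes, Pearson's r with the remaining arrays had a median of 0.974 for F0 SED and 0.979 for F1 EX pool 1, against 0.986 to 0.993 for the others. Their lower quartiles over all probe sets were both 2.48, against 2.28 to 2.32 on the other 8 arrays.

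No gene of the set passed in any of 6 comparisons. In F0 against descendants, 0 of 6 tested genes passed at an adjusted p of 0.05 (limma, Benjamini-Hochberg adjustment over 11963 genes), where 279 genes (2.33%) passed over all genes, 0.794% higher and 1.54% lower in F0. That total was 1231 without F0 EX, 86 without F0 SED, 584 without F1 EX pool 1, 185 without F2 EX pool 2 and 181 without F2 SED pool 2, with 0 of 6 in the set each time. At an unadjusted p under 0.05 there were 2 of 6, against 17.6% of all genes. These were Mbp and Pmp22, the pair of compact myelin proteins in the set, and both were lower in F0.

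Mbp encodes myelin basic protein, which binds the cytoplasmic faces of the membrane together in compact myelin. Its log2 signal was 4.56 for the F0 EX pool and 4.47 for the F0 SED pool. The 8 descendant pools ran from 4.72 through a median of 4.92 to 5.02. Both F0 pools thus lay below every descendant pool. The means were 4.52 ± 0.06 in F0 (SD, n = 2) and 4.89 ± 0.10 in descendants (SD, n = 8), a log2 difference of -0.38 (SE 0.107, 95% interval -0.61 to -0.14) or 1.30-fold lower in F0. These SDs span EX and SED pools and are not the spread of replicates of a group. The unadjusted p was 4.23e-03 and the limma adjusted p 0.0976, which did not pass. Without the F0 SED pool, one of the arrays that stood apart, the difference was -0.27 (adjusted p = 0.452), and without both of those arrays it was -0.22 (adjusted p = 0.369). Without the F0 EX pool it was -0.48 (adjusted p = 0.0506).

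Pmp22, a tetraspan protein of compact myelin whose gene dosage underlies inherited neuropathies in people, had a log2 signal of 9.26 for the F0 EX pool and 9.64 for the F0 SED pool. The descendant pools ran from 9.66 through a median of 9.90 to 10.2. Both F0 pools were again below every descendant pool, F0 SED by a narrow margin. The means were 9.45 ± 0.27 in F0 (SD, n = 2) and 9.90 ± 0.15 in descendants (SD, n = 8), where the SDs again span EX and SED pools. The log2 difference was -0.45 (SE 0.144, 95% interval -0.77 to -0.14), or 1.37-fold lower in F0, with an unadjusted p of 8.50e-03 and a limma adjusted p of 0.134. Without the F0 EX pool it was -0.25 (adjusted p = 0.411), and without the F0 SED pool -0.66 (adjusted p = 0.166).

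The choice of descendant generation mattered little for these genes. Against F1 alone the F0 difference was -0.36 for Mbp and -0.47 for Pmp22, and against F2 alone it was -0.39 and -0.44. Over all kept genes, 12.4% had F0 pools that did not overlap the descendant pools, with both F0 pools above in 5.79% and below in 6.65%. Among the 6 tested genes, 2 did not overlap and both were lower in F0.

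Pmp22 is known to be transcribed from separate start sites in rodents, one of them used mainly by Schwann cells and another by many tissues. It had 1 probe set, which does not tell these transcripts apart, so its signal need not come from Schwann cells alone. RefSeq gives 4 start windows on build GRCm38.p6, each from 250 bases before to 50 bases after a start. The first and the last are shown because they differ most in base composition, with 50.7% and 72.3% G and C. Both are on the plus strand. They are written in lower case because neither holds ACAAT or ACAAAG (SOX cores) or GCGTGGG (an EGR core) on either strand.
Pmp22 window 1, chr11:63128732-63129031: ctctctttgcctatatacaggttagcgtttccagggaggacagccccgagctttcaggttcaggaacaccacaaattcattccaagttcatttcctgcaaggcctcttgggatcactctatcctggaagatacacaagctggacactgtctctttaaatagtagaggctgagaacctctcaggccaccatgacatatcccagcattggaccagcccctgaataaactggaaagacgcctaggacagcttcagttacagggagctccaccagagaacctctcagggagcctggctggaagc
Pmp22 window 4, chr11:63132553-63132852: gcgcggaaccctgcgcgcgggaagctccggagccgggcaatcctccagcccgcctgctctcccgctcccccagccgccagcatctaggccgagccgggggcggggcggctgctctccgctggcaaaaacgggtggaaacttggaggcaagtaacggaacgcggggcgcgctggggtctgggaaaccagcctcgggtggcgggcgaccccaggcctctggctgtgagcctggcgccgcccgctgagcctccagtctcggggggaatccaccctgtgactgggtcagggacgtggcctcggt
Windows of Mbp were left out of the search, and none was given for Sox10. In the 11 windows of the other 6 members, ACAAT was found in 1 (31% of all 32851 windows), ACAAAG in 4 (18.7%) and GCGTGGG in 2 (5.04%). The ACAAAG matches were in Mag, Cnp and Egfl8, the ACAAT match in Egfl8, and the GCGTGGG matches in Prx and Cnp. The first and second windows of Mag overlap and hold the same ACAAAG match. Such matches describe the letters of a window and are not evidence of binding.

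**Figure D1:**
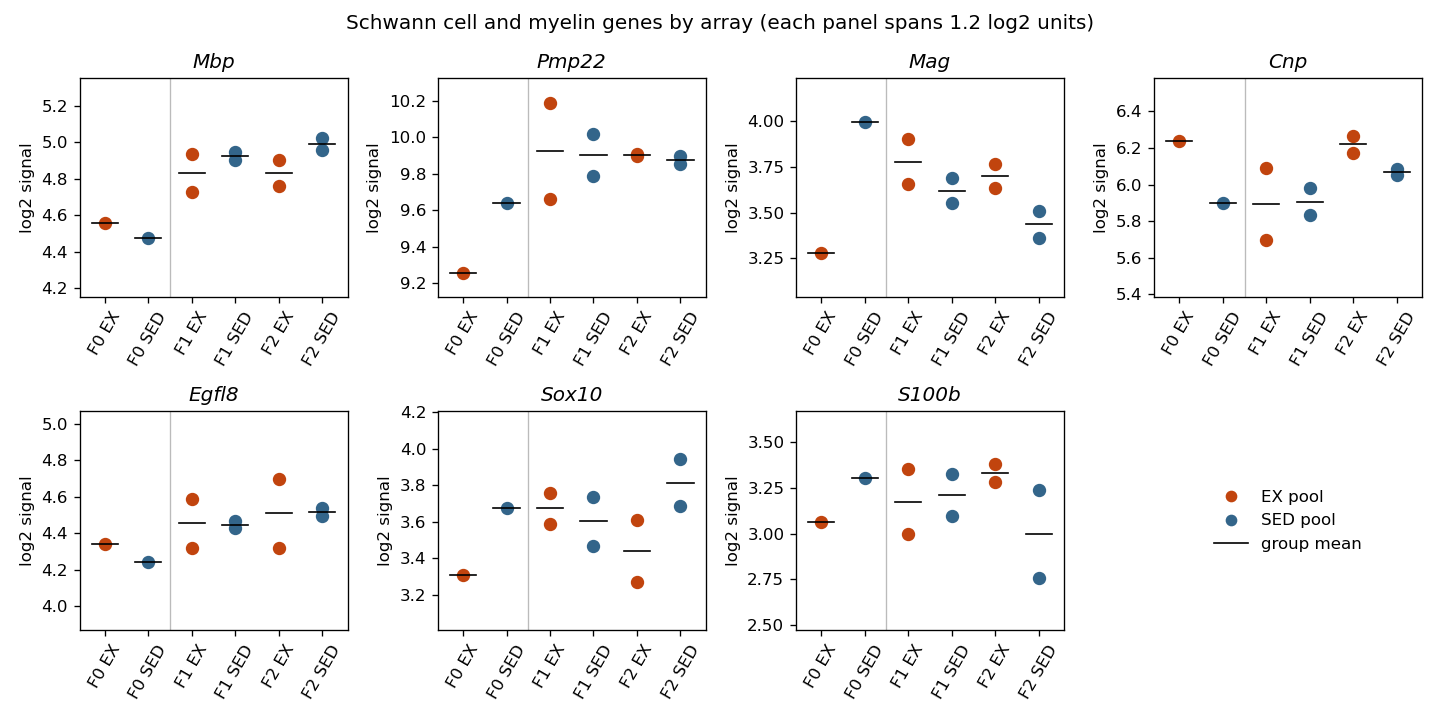
Log2 signal of the 7 measured genes (vertical axes, each spanning 1.2 log2 units) on every array, by group. Points are pools (EX orange, SED blue), bars are group means, and the grey line parts F0 from its descendants. Mbp and Pmp22 are lower in both F0 pools (4.47 to 4.56 and 9.26 to 9.64) than in any descendant pool, while Mag has its lowest and highest values in F0 EX and F0 SED.

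Mag and Cnp encode proteins of uncompacted myelin. Mag, an adhesion protein of the innermost Schwann cell membrane facing the axon, had a log2 signal of 3.28 for the F0 EX pool and 3.99 for the F0 SED pool. These were the lowest and the highest of all 10 arrays, either side of 3.36 to 3.90 in the descendants. The means of F0 and descendants were 3.63 each, with a log2 difference of 0.00 (95% interval -0.38 to 0.38, limma adjusted p = 0.997). The value rests on which F0 pool is used, with -0.46 without F0 SED (limma adjusted p = 0.236) and 0.47 without F0 EX (limma adjusted p = 0.0714).

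Cnp, a phosphodiesterase of the non-compact cytoplasmic channels that many other cells also make, had a log2 signal of 6.24 for the F0 EX pool and 5.90 for the F0 SED pool. The descendant pools ran from 5.69 to 6.27 around both values. The F0 difference was 0.05 (95% interval -0.23 to 0.32, limma adjusted p = 0.887).

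Egfl8, a secreted protein with EGF-like domains, was at 4.34 for the F0 EX pool and 4.24 for the F0 SED pool, against 4.32 to 4.69 with a median of 4.48 in the descendants. F0 EX overlapped the descendant pools and F0 SED did not. The difference was -0.19 (95% interval -0.45 to 0.07, limma adjusted p = 0.447). For Sox10 the log2 signal was 3.31 for the F0 EX pool and 3.67 for the F0 SED pool, within the descendant range of 3.27 to 3.94. Its difference was -0.14 (95% interval -0.46 to 0.19, limma adjusted p = 0.675).

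S100b, a calcium-binding protein of Schwann cells that adipocytes also make, was at 3.06 for the F0 EX pool and 3.31 for the F0 SED pool. The descendant pools ran from 2.76 through a median of 3.26 to 3.38, so the groups overlapped. These values lay near the signal filter of 3.23. The lowest pools of Mag (3.28, F0 EX) and Sox10 (3.27, F2 EX pool 2) lay near it too. Their means over all arrays, 3.63 and 3.60, were not far above it, which limits how their differences can be read.

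F0 EX was then set beside F0 SED, with 1 pool each and so without a test or an error. Mag had the largest difference of the set, at -0.72 on the log2 scale (3.28 for the F0 EX pool and 3.99 for the F0 SED pool). Pmp22 differed by -0.38, Sox10 by -0.37 and S100b by -0.24, while Cnp differed by 0.34, Egfl8 by 0.10 and Mbp by 0.08. Over all kept genes the median difference was 0.08, and F0 EX exceeded F0 SED by 0.5 or more in 1835 genes and was below it by as much in 644. With quantile normalization the difference was -0.62 for Mag, -0.64 for Pmp22, -0.25 for Sox10, -0.096 for S100b and 0.21 for Cnp. With median centring it was -0.23 for Pmp22, -0.22 for Sox10, -0.097 for S100b and 0.25 for Egfl8. Mag had its highest values on the F0 SED array and F1 EX pool 1 (3.99 and 3.90), the arrays with the raised lower quartile. With quantile normalization and median centring the Mag difference stayed below 0, and the part of that shift in it was not tested further.

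In the descendants, EX ancestry was compared with SED ancestry to ask whether exercise of the forebears left a difference in muscle of sedentary offspring. Over both generations 0 of 6 genes passed, as did 0 of 11963 genes (0%). Mag was the single gene of the set with an unadjusted p under 0.05, against 4.99% of all genes. Its 4 EX pools were at 3.90, 3.66, 3.76 and 3.64, and its 4 SED pools at 3.55, 3.69, 3.51 and 3.36. The groups overlapped through F1 SED pool 2. All 6 genes overlapped here, where 3.03% of all genes did not (1.75% with EX above and 1.28% with EX below). Mag averaged 3.74 ± 0.12 in EX and 3.53 ± 0.14 in SED (SD, n = 4 each), a log2 difference of 0.21 (SE 0.094, 95% interval 0.00 to 0.42, unadjusted p = 0.0471, limma adjusted p = 0.888).

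Sox10 averaged 3.55 ± 0.21 in EX and 3.71 ± 0.19 in SED (SD, n = 4 each), a difference of -0.15 with a 95% interval from -0.44 to 0.14. It was -0.040 without F2 EX pool 2 and -0.25 without F1 SED pool 2. Mbp averaged 4.83 ± 0.10 in EX and 4.96 ± 0.05 in SED (SD, n = 4 each), and its difference of -0.13 had an interval from -0.32 to 0.07. The intervals of the other tested genes also held 0. They ran from -0.23 to 0.28 for Pmp22 (estimate 0.03), from -0.23 to 0.23 for Egfl8 (0.00) and from -0.16 to 0.30 for Cnp (0.07). The intervals give the differences that remain compatible with 4 pools a group, before adjustment over all genes. They are not detection limits, which were not computed.

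**Figure D2:**
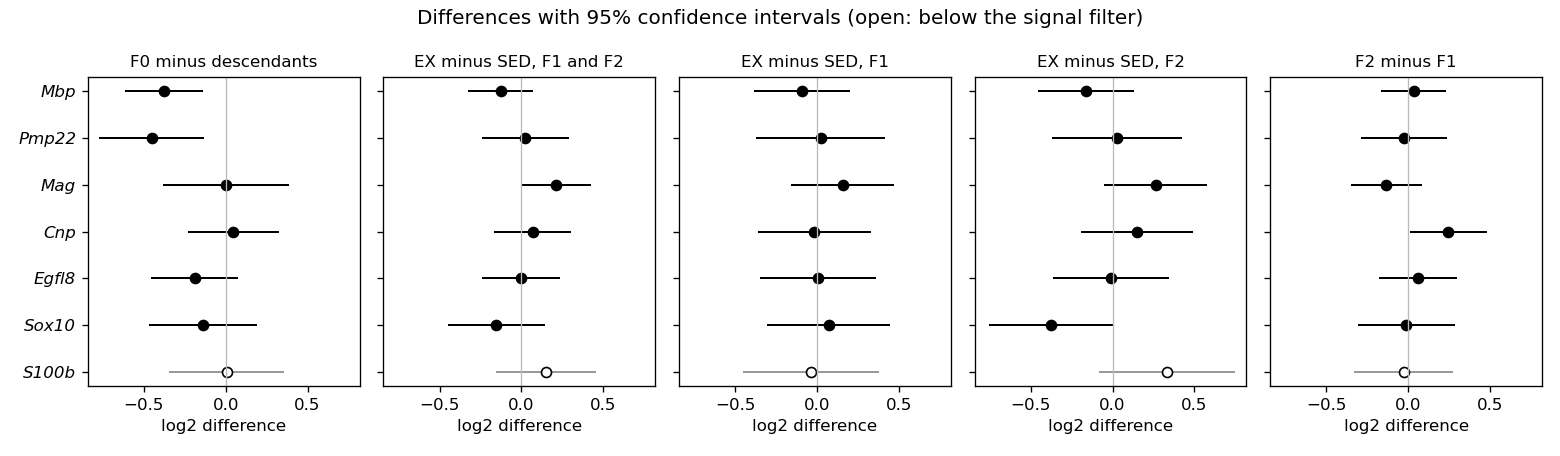
Estimated log2 differences (horizontal axes) of each gene in 5 comparisons, with 95% confidence intervals from limma. Filled points are tested genes and the open point is S100b, below the signal filter. The intervals of Mbp and Pmp22 lie below 0 in F0 against descendants, that of Sox10 lies just below 0 in F2, and those of Mag over both generations and Cnp in F2 against F1 lie just above 0. None of these passed after adjustment.

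Within F1, 0 of 6 genes passed, as did 0 of all genes (0%), and 0 of 6 had an unadjusted p under 0.05 (4.88% of all genes). Without F1 EX pool 2 the count over all genes was 1046, and without F1 SED pool 1 it was 8, with 0 of 6 in the set both times. No gene of the set had EX pools apart from SED pools, against 29.6% of all genes (13% higher and 16.6% lower in EX). Mag had the largest estimate, at 0.16 (95% interval -0.15 to 0.47), with log2 signals of 3.90 and 3.66 in F1 EX and 3.55 and 3.69 in F1 SED. Its size rests on single pools, at 0.036 without F1 EX pool 1, an array that stood apart, and 0.28 without F1 EX pool 2. Pmp22 was at 10.2 and 9.66 in F1 EX against 10.0 and 9.79 in F1 SED. The pools of F1 EX thus lay further apart than the groups did. The estimates were -0.09 for Mbp, 0.02 for Pmp22, 0.07 for Sox10, 0.01 for Egfl8 and -0.02 for Cnp.

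Within F2, 0 of 6 genes passed and 1 had an unadjusted p under 0.05 (4.45% of all genes), again with 0 of all genes called (0%). That gene was Sox10, at 3.61 and 3.27 in F2 EX against 3.94 and 3.69 in F2 SED. Both EX pools were below both SED pools. The log2 difference was -0.38 (SE 0.165, 95% interval -0.75 to -0.01, unadjusted p = 0.0469, limma adjusted p = 1.00). Its size rests on single pools, at -0.21 without F2 EX pool 2 and -0.55 without F2 EX pool 1. The EX pools of 4 of the 6 tested genes did not overlap the SED pools, against 40.4% of all genes (25.8% higher and 14.6% lower in EX). Sox10 and Mbp were the lower ones in EX, and Mag and Cnp the higher ones.

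Mbp in F2 stood at 4.76 and 4.90 in EX against 4.96 and 5.02 in SED, a difference of -0.16 (95% interval -0.45 to 0.13). Mag stood at 3.76 and 3.64 in EX against 3.51 and 3.36 in SED, with a difference of 0.27 (-0.04 to 0.57). Cnp stood at 6.27 and 6.18 in EX against 6.09 and 6.05 in SED, with a difference of 0.15 (-0.18 to 0.49). Myelin genes thus lay on either side of 0 within the same comparison. Pmp22 had an estimate of 0.03 and Egfl8 of -0.01.

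The F2 ancestry effect minus the F1 ancestry effect was tested directly. None of the 6 genes passed, nor did any of all genes (0%), although 143 of all genes did without F1 EX pool 2 and 5 without F1 SED pool 1. Sox10 had the largest estimate, at -0.45 (95% interval -0.97 to 0.08, unadjusted p = 0.0850, limma adjusted p = 0.919). The other 5 lay between -0.07 (Mbp) and 0.17 (Cnp).

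Between F2 and F1, of the same age, 0 of 6 genes and 0 of all genes (0%) passed. Cnp alone had an unadjusted p under 0.05, against 4.25% of all genes. Its F2 pools were at 6.27, 6.18, 6.09 and 6.05, and its F1 pools at 5.69, 6.09, 5.83 and 5.98. The groups overlapped through F1 EX pool 2, the second value of F1. All 6 genes overlapped, where 2.88% of all genes did not (1.77% with F2 above and 1.11% with F2 below). Cnp averaged 6.15 ± 0.10 in F2, against 5.90 ± 0.17 in the 4 F1 pools (SD, n = 4 each), a log2 difference of 0.25 (SE 0.104, 95% interval 0.02 to 0.48, unadjusted p = 0.0382, limma adjusted p = 0.911). Without F1 EX pool 1, its lowest pool, the difference was 0.15. The estimates of the other tested genes lay between -0.13 (Mag) and 0.06 (Egfl8).

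Genes of one tissue compartment can vary together when its share varies between pools. Over the 8 descendant arrays the 15 pairs of tested genes had Pearson r from -0.65 (Pmp22 and Cnp) to 0.59 (Egfl8 and Cnp), with a median of -0.18 and 6 pairs above 0. All points share the same arrays, and arrays of one group share ancestry. Signs were thus mixed within the set. The kept genes most like the mean profile of the set over these arrays were Dck (deoxycytidine kinase) with r = 0.96, Rdh13 with 0.94, Adamts8 with 0.93 and Chrne, the adult acetylcholine receptor subunit of the neuromuscular junction, with 0.93. They were picked as the highest of 11957 genes and are given as a description. Over all 10 arrays the genes most like the set were Orai1 (r = 0.97), Adamts8 (0.92), Ptgfrn (0.91) and Fam126a (0.91). In that mean profile the F0 EX pool lay farthest from 0, at -0.23, and the F0 SED pool was at -0.071.

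**Figure D3:**
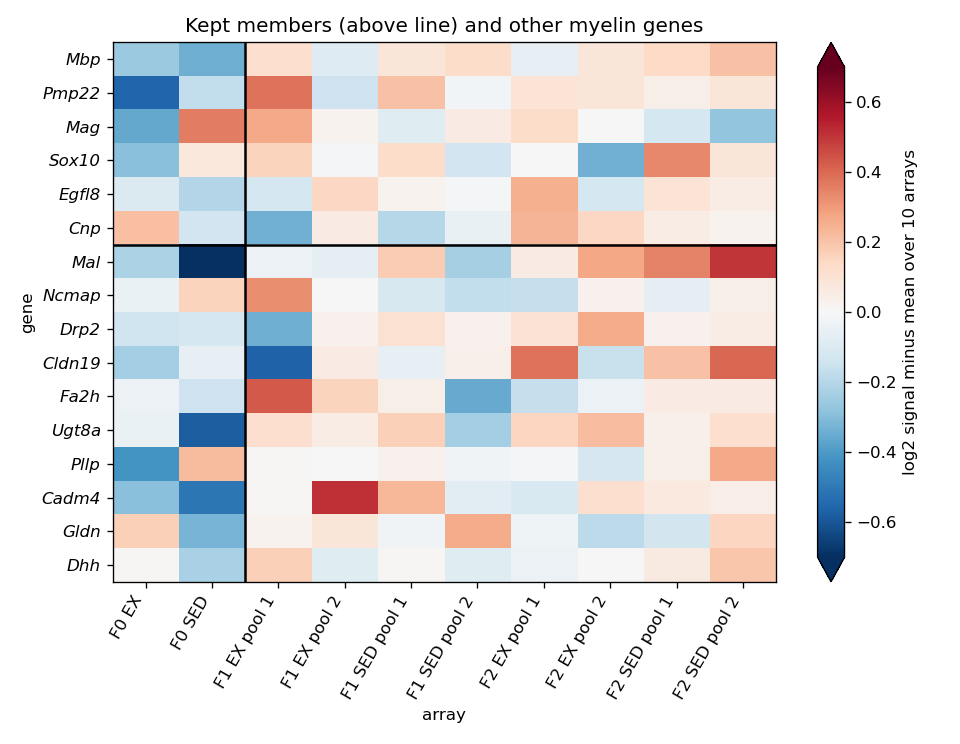
Log2 signal minus the gene's mean over 10 arrays (colour, red above and blue below the mean) for the 6 tested genes, above the horizontal line, and 10 other myelin genes. Columns are arrays, with the 2 F0 arrays left of the vertical line. Mal, Ugt8a, Cadm4, Gldn, Dhh, Mbp and Egfl8 are lowest on the F0 SED array, and Pmp22, Mag and Pllp on F0 EX. Over all 11963 kept genes, F0 SED is the lowest array in 3250 and F0 EX in 1213. No column is of one colour throughout.

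The wider myelin programme was read from a list of 14 other genes of myelin and myelinating Schwann cells, of which 10 passed the signal filter. In F0 against descendants 0 of 10 passed in either direction, 9 of 10 estimates were below 0, and the median was -0.15. The 6 tested genes of the set had 4 of 6 below 0 and a median of -0.17, and all 11963 genes a median of -0.02 with 45.1% above 0. Mal, a proteolipid of myelin membrane and of epithelia, had the estimate farthest from 0. It was at 4.88 for the F0 EX pool and 4.31 for the F0 SED pool, against 4.87 to 5.61 with a median of 5.22 in the descendants. Only F0 SED was below every descendant pool. The difference was -0.63 (SE 0.164, limma adjusted p = 0.0728). Cldn19, a claudin of Schwann cell tight junctions, differed by -0.18 (limma adjusted p = 0.610).

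Further genes were singled out after their values were seen. Cadm4, a Schwann cell adhesion protein that binds the axon, was at 4.20 for the F0 EX pool and 3.99 for the F0 SED pool, below the descendant range of 4.39 to 5.01 (difference -0.50, limma adjusted p = 0.101). Egr2, the zinc finger factor that works with Sox10 on myelin genes, was at 3.37 for the F0 EX pool and 3.49 for the F0 SED pool, below 3.52 to 4.21 in the descendants (difference -0.36, limma adjusted p = 0.207). Both F0 pools were thus below all descendant pools for Cadm4 and Egr2, and neither passed. Lpar1, in the same list as Egr2, was at 5.68 for the F0 EX pool and 5.60 for the F0 SED pool. Both lay below its descendant range of 5.81 to 6.03 (difference -0.28, limma adjusted p = 0.198). Over all kept genes, both F0 pools lay below the descendants in 6.65% and above them in 5.79%. Adgrg6, listed like Egr2 among Schwann cell regulators and receptors, went the other way. It was at 4.30 for the F0 EX pool and 4.41 for the F0 SED pool. Both lay above the descendant range of 3.93 to 4.23 (difference 0.27, limma adjusted p = 0.246), and it did not pass either. Ugt8a, which makes the galactolipid of myelin, differed by -0.39 (limma adjusted p = 0.153), with F0 EX at 4.40 inside the descendant range and F0 SED at 3.87 below it.

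Regulators and receptors of Schwann cells numbered 15, of which 12 were tested and 0 passed. Their median was -0.07, with 4 estimates above 0 and 8 below. Tead1, a factor of the Hippo pathway, differed by -0.01, and Zeb2, a repressor needed for Schwann cell maturation, by 0.19. Of 7 genes of non-myelinating or immature Schwann cells 6 were tested and 0 passed, with a median of -0.02. In that list Ncam1, an adhesion protein that denervated muscle also makes, differed by -0.28, and the sodium channel Scn7a by 0.23. The F0 EX and F0 SED pools of Ncam1 (5.61 and 5.53) lay below its descendant range of 5.67 to 6.00, while Scn7a overlapped.

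Axon and neuron markers gave 4 tested genes of 8 and 0 passed, with Nefh (heavy neurofilament) at -0.08 and Prph (peripherin) at -0.08. The other 2 lay farther out on opposite sides, Stmn2 at 0.79 and Snap25 at -0.48, each with an unadjusted limma p under 0.05 (0.00319 and 0.0276). So had 17.6% of all genes, 3 of 10 other myelin genes, 3 of 12 regulators and receptors and 3 of 16 sterol synthesis enzymes. The count was 1 of 6 for non-myelinating or immature genes, 0 of 3 for perineurial and 0 of 2 for oligodendrocyte markers. All 3 perineurial markers were tested and 0 passed, with Slc2a1 at 0.16, Itgb4 at 0.10 and Cldn1 at -0.09. Enzymes of sterol synthesis, which supply the cholesterol of myelin, had 16 tested of 18 and 0 passed. Their estimates were above 0 in 12 of 16, with a median of 0.07, Fdft1 at 0.29 and Sc5d at 0.04. The 2 tested oligodendrocyte genes, Hapln2 and Cldn11, differed by -0.12 and 0.09.

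For ancestry over both generations the median was -0.04 for the other myelin genes (4 of 10 estimates above 0) and 0.00 for the regulators (6 of 12). It was -0.12 for the 2 oligodendrocyte markers and -0.08 for the 3 perineurial markers, all of them below 0. In F2 both oligodendrocyte markers had an unadjusted p under 0.05 (4.45% of all genes), with a median of -0.39, and neither passed. Both were above 0 in F1, with a median of 0.16. In F2 the other myelin genes had 2 of 10 above 0 and a median of -0.13, against a median of 0.04 for all genes. In F1 they had 6 of 10 above 0 and a median of 0.04, against 0.00 for all genes. None of them passed in either generation, and a difference between the medians was not tested.

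Some markers of other muscle cells had larger differences in the same F0 comparison. Of 6 fibroblast markers 3 passed, all lower in F0, namely Col1a1 (-2.27), Col1a2 (-1.88) and Col3a1 (-1.50), with limma adjusted p-values of 1.47e-06, 4.99e-06 and 4.67e-05. The list's summed linear signal was 3447 to 4401 in F0 and 9077 to 11532 in descendants. Of 7 endothelial markers 2 passed, both lower in F0, Pecam1 (-0.71, limma adjusted p = 0.0134) and Cdh5 (-0.62, limma adjusted p = 0.0268), and the list's sum was 663 to 810 in F0 and 952 to 1042 in descendants. The fibroblast markers that did not pass were Dcn at -0.31, Lum at -0.18 and Pdgfra at -0.04. The endothelial ones were Cldn5 at -0.56, Kdr at -0.46, Tek at -0.37, Tie1 at -0.19 and Egfl7 at -0.05. Pmp22 is also made by fibroblasts, and the part of these cells in its difference was not tested.

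The remaining cell lists had 0 members passed. Macrophage markers summed to 388 to 495 in F0 and 481 to 617 in descendants (7 tested, Lyz2 at -0.45 and Csf1r at -0.28). Mural and smooth muscle markers summed to 1628 to 1708 in F0 and 1672 to 1950 in descendants (6 tested, Rgs5 at -0.27 and Acta2 at 0.03). Adipocyte markers, of interest for S100b, summed to 309 to 349 in F0 and 216 to 453 in descendants (5 tested, 3 of them above 0, with Cidec at 0.61, Adipoq at 0.37, Plin1 at 0.13, Retn at -0.08 and Fabp4 at -0.44). Skeletal muscle markers summed to 40915 to 51551 in F0 and 44817 to 54372 in descendants (9 tested, Acta1 at -0.19 and Ckm at -0.27). Against these, the sum of the 6 tested Schwann cell and myelin genes was 751 to 926 in F0 and 953 to 1297 in descendants, most of it from Pmp22.

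**Figure D4:**
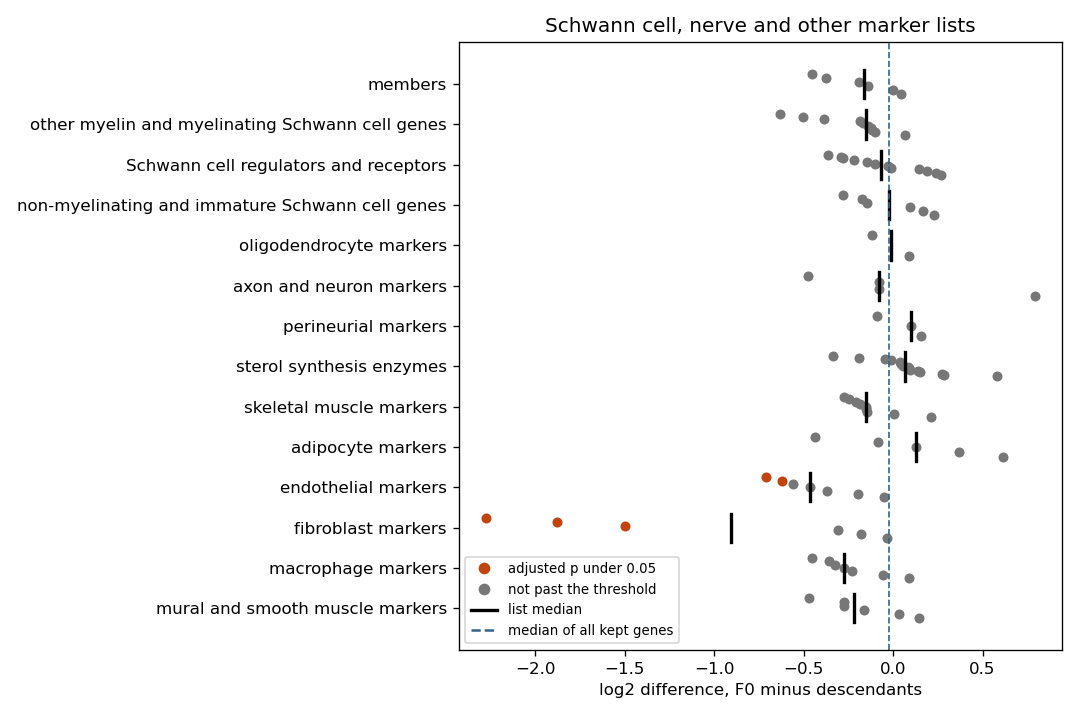
Log2 difference of F0 minus descendants (horizontal axis) for every tested gene of each list (points), with list medians (black bars) and the median of all kept genes (dashed line, -0.02). Orange points passed at an adjusted p of 0.05, and all 5 of them are fibroblast and endothelial markers. The 6 tested members and the other myelin genes have medians of -0.17 and -0.15.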

How the data were processed

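Each array of total RNA from gastrocnemius carried a pool of 5 mice, and sense-strand cDNA was labelled with biotin, per the labels' protocols. The authors deposited log2 probe set signals of 35557 probe sets, from 0.966 to 14.2, and the log2 scale was read from this range. Affymetrix Expression Console made these values, per the submitters' processing notes. The normalization is not given in the sources used here. Values were used as deposited. Gene symbols came from GEO's annotation of the platform (21789 with 1 symbol, 1621 with several, 12147 with none), taking the highest-mean probe set of a gene. Genes at or above the 40th percentile of means were kept. Differences were fitted with limma 3.58.1 in R 4.3.3 (lmFit, eBayes) on all kept genes, with Benjamini-Hochberg adjustment, an adjusted p threshold of 0.05 and 95% confidence intervals.

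The F0 comparison took F0 minus the average of both descendant generations, with generation and ancestry as additive terms over 10 arrays. Such a model takes the EX minus SED difference to be the same in F0 as in the descendants. Ancestry over both generations and F2 against F1 came from the additive model on the 8 descendant arrays, and effects within F1 and F2 from a 4-group model. The fits were tested on simulated data. The members, gene lists and tests were chosen with earlier results of these data known. Some genes of the myelin list are not reported here. Besides the members, the text names each list's genes called in F0 against descendants (up to 4), filled to 2 with the highest mean. The 10 genes most like the mean profile of the set were computed, and the first 4 are named. Nothing in the labels says that the pools of a group held different animals, so p-values cover pool-to-pool spread that may be technical.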

Additional observations from a re-analysis of the deposited data

How the results depend on the processing

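None of the 6 tested genes of the set passed in any of 6 comparisons under any alternative run, and the other lists were not run under them. The alternatives were quantile normalization, median centring, no signal filter, a filter at the 60th percentile (which drops Mag, Sox10 and Egfl8), trend and robust settings, array weights, a replicate block, the mean of probe sets, the left-out arrays and, for F0, the descendant generation and the ancestry term. In F0 against descendants the adjusted p ran from 0.0506 to 0.598 for Mbp and from 0.0726 to 0.638 for Pmp22, and both stayed below 0 in all 22 settings. The count of all genes called there was 38 with array weights, 123 with the replicate block, 156 against F1 alone, 170 without F0 SED and F1 EX pool 1, and 86 to 1231 with each array left out. The extremes came without F0 SED and without F0 EX. For F1 ancestry it was 0 to 1046 and for the difference of ancestry effects 0 to 143 with each array left out, both high values without F1 EX pool 2. For F2 against F1 array weights gave 1 and the trend and robust options 2. Without a replicate a lone pool is assumed to vary like the other groups.

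The replicate block paired pools by number. Differences between pool 1 and pool 2 correlated over genes between groups at -0.11 to 0.06, so no strong shared pattern across genes went with the pool number. A shift equal in all genes leaves such a correlation unchanged and cannot be seen this way. Nor can a factor shared by number in fewer genes. Under the block 0 of 6 genes passed in each comparison.

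Estimates near 0 changed sign under some alternatives, and the cause was not tested. In F0 against descendants Mag was -0.047 with the replicate block, -0.065 against F1 alone and -0.43 without F0 SED and F1 EX pool 1, and Cnp was -0.077 against F2 alone. Leaving out that pair of arrays also gave -0.080 for Pmp22 and 0.051 for Egfl8 in ancestry over both generations. In F1 it gave -0.24 for Pmp22, -0.013 for Sox10 and 0.18 for Cnp. It gave 0.037 for Mbp and -0.030 for Cnp in the difference of ancestry effects, and 0.078 for Pmp22 and 0.067 for Sox10 in F2 against F1. Quantile normalization gave 0.0084 for Egfl8 in ancestry over both generations and 0.0099 in F2, 0.016 for Cnp in F1, -0.060 for Pmp22 and 0.0030 for Egfl8 in the difference of ancestry effects, and 0.021 for Sox10 in F2 against F1. Median centring gave 0.013 for Egfl8 over both generations, -0.0088 for Pmp22 and -0.025 for Egfl8 in F1, and 0.050 for Egfl8 in F2. It gave 0.023 for Mbp and 0.075 for Egfl8 in the difference of ancestry effects, and 0.019 for Pmp22 and 0.033 for Sox10 in F2 against F1. Array weights gave -0.019 for Pmp22 over both generations, and 0.062 for Pmp22 and 0.078 for Sox10 in F2 against F1.

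With each array left out in turn, F0 against descendants ran from -0.46 to 0.47 for Mag and from -0.092 to 0.18 for Cnp. Ancestry over both generations ran from -0.080 to 0.13 for Pmp22 and from -0.075 to 0.075 for Egfl8. F1 ancestry ran from -0.20 to 0.013 for Mbp, -0.24 to 0.29 for Pmp22, -0.061 to 0.21 for Sox10, -0.13 to 0.14 for Egfl8 and -0.21 to 0.18 for Cnp. F2 ancestry ran from -0.20 to 0.18 for Egfl8. The difference of ancestry effects ran from -0.17 to 0.037 for Mbp, -0.26 to 0.27 for Pmp22, -0.015 to 0.23 for Mag, -0.20 to 0.17 for Egfl8 and -0.030 to 0.36 for Cnp. F2 against F1 ran from -0.0012 to 0.083 for Mbp, -0.13 to 0.078 for Pmp22, -0.11 to 0.10 for Sox10 and -0.011 to 0.14 for Egfl8. For the F0 pair, F0 EX minus F0 SED was -0.64 for Pmp22 with quantile normalization, and 0.23 for Mbp and -0.57 for Mag with median centring. The number of arrays limits the precision throughout.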

Other observations

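Among genes of the nerve lists singled out after their values were seen, Stmn2 (stathmin 2, a microtubule regulator of growing axons) had the largest difference above 0 in F0. It was at 3.98 for the F0 EX pool and 4.76 for the F0 SED pool, against 3.17 to 4.02 with a median of 3.56 in the descendants. F0 SED, an array that stood apart, was above every descendant pool and F0 EX was not. The log2 difference was 0.79 (SE 0.214, limma adjusted p = 0.0835). In the sterol list, Hsd17b7, an enzyme of a late step of cholesterol synthesis, was at 6.25 for the F0 EX pool and 5.88 for the F0 SED pool. Both were above the descendant range of 5.14 to 5.77, with a difference of 0.58 (SE 0.165, limma adjusted p = 0.0984). Over all kept genes, 5.79% had both F0 pools above the descendants. Neither Stmn2 nor Hsd17b7 passed.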
